A study of Homo sapiens with 4 samples.

Results

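Ribosomal protein (RP) genes of the cytoplasmic ribosome were examined in cells exposed to 5-azacytidine (AZA). Genes were taken from the array annotation by symbol, as RPL or RPS followed by a number with an optional A or X, or RPLP0, RPLP1, RPLP2 or RPSA. This gave 75 genes, 45 of the large subunit and 30 of the small subunit, of 43311 gene names on the array, and 158 probes of 58201 gene probes. No probe named RPL10 or RPSA met the rule, and these genes were not analysed here. The set was defined by name and not by any measured value, but it was chosen with earlier results of these data known.

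The 4 arrays held RNA of MDS-L cells with vehicle, MDS-L cells with AZA, MDS-L/CDA cells with vehicle and MDS-L/CDA cells with AZA, 1 array per condition. MDS-L is a line grown from the cells of a patient with a myelodysplastic syndrome, and MDS-L/CDA is its AZA-resistant derivative, made by transduction of CDA, a deaminase of cytidine analogues. Vehicle was 0.1% DMSO, AZA was used at 1 μM, and exposure lasted 72 h. The labels write the AZA dose in micromolar in one field and in millimolar in another, and the dose in the study's methods was used. For the MDS-L AZA and the MDS-L/CDA vehicle arrays, 1 label field names the other treatment, while title, description and source name all give the treatment used here. With 1 array per condition, no difference has a replicate check, none could be tested, values carry no error, and the number of arrays limits the precision.

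The cytoplasmic ribosome is built of ribosomal RNA and of proteins that are mostly encoded by single active genes scattered over the genome, with many processed pseudogene copies. RP mRNAs are among the most abundant of dividing cells, and most start with a C followed by a run of pyrimidines (the TOP tract), through which their translation follows growth signals. Loss of 1 copy of RPS14 on 5q impairs erythroid maturation in myelodysplastic syndromes with del(5q), and mutated RP genes cause Diamond-Blackfan anaemia. RPL5 and RPL11, bound to 5S RNA, hold back MDM2 and so stabilise p53 when ribosome assembly fails. AZA is incorporated into RNA as well as DNA.

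Feature Extraction marked signals as well above background for 32.6% to 36.5% of probes per array, and none was saturated. Each signal was divided by the 75th percentile of its array (37.3 to 52.9), which gives the scaled signal used below. The spread between spots of 1 probe on 1 array had a median SD of 0.12 to 0.20 on the log2 scale, the only technical error that the arrays provide. Of 11 myeloid progenitor markers, 9 or 10 were well above background on each array, with summed scaled signals of 213 to 242. Single markers moved more than these sums. The log2 ratios of AZA over vehicle ran from −1.48 to 5.57 in MDS-L and from −0.66 to 1.84 in MDS-L/CDA (9 markers in each). MPO, which defines granule-forming myeloid cells, stayed below the background mark on all 4 arrays. Of 10 markers of lymphoid, epithelial, stromal and endothelial cells, 3 or 4 were well above background, with summed scaled signals of 1.80, 8.68, 2.35 and 2.32 on the arrays in the order given above. Their part in the RP values was not tested.

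Since every RP value is read from 60-base probes, the probes of members on which later comparisons turn are shown first, 5′ to 3′ and in lower case, each with at least 1 reading frame free of a stop codon along its whole length. Positions are hg19, as deposited. The RPS14 probe lies at chr5:149826459-149826518 on the minus strand, RPL9 at chr4:39458032-39458091 on the minus strand, RPL11 at chr1:24021173-24021232, RPS27A at chr2:55462018-55462077 and RPL28 at chr19:55899332-55899391 on the plus strand. The RPS15 probe spans chr19:1440214-1440368 on the plus strand, 155 bases of genome for 60 bases of probe, so its placement crosses a splice junction.
RPS14: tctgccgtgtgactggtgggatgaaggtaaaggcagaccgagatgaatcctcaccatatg
RPL9: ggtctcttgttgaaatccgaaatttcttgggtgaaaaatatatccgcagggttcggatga
RPL11: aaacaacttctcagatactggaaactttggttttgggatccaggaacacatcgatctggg
RPS27A: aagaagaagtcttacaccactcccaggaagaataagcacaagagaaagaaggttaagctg
RPL28: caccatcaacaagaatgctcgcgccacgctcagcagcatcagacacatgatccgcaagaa
RPS15: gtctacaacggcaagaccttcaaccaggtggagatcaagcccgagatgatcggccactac

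The TOP tract was looked for in the RefSeq promoter windows of GRCh38.p14, 250 bases before to 50 bases after each annotated start, which held 60 of the 75 members with 73 starts. A C at a start, followed by at least 4 pyrimidines, occurred in 44 members (73.3%), against 988 of 15843 protein-coding genes (6.24%) and 6 of 68 genes for mitochondrial ribosomal proteins (8.82%), whose mRNAs are not of the TOP class. The share of genes with the tract was thus higher in the cytoplasmic set, and the choice of members did not use it. Windows of 30 bases centred on the start are given to let the tract be seen, with the pyrimidine run from the start in capitals. They lie at chr5:150449725-150449754 on the minus strand (RPS14), chr9:19380222-19380251 on the minus strand (RPS6), chr19:41860240-41860269 on the plus strand (RPS19), chr1:23691791-23691820 on the plus strand (RPL11), chr15:69452803-69452832 on the plus strand (RPLP1), chr11:809952-809981 on the plus strand (RPLP2) and chr4:39458908-39458937 on the minus strand (RPL9).
RPS14: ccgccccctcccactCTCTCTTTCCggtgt
RPS6: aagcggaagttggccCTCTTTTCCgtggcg
RPS19: ggaaaccccgtcgttCCCTTTCCCCTggct
RPL11: cggaagctccgctttCTCTTCCTgctctcc
RPLP1: gtataggcgcgagagCCCCTTTCCTCagct
RPLP2: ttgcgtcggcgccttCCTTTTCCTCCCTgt
RPL9: gtacgtaatgacgacagacgttctttcttt

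The run was 10 bases long for RPS14 and 13 for RPLP2, while the annotated RPL9 start had none. With 1 value per gene, that of the start richest in CpG, the members had a median of 25 CpG per window (12 to 44) and all protein-coding genes 24 (0 to 69). The core CCGGAA, bound by ETS factors, was found on either strand in 56.7% of members, 26.6% of protein-coding genes and 61.8% of mitochondrial RP genes. GGGCGG, bound by SP1, was found in 56.7%, 64.3% and 60.3%, and ATGGC, a core bound by YY1, in 56.7%, 44.3% and 77.9% of these sets. Each motif was counted on its own, wherever it overlapped another.

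Of the 158 RP probes, 155 were used, and 3 with an outlier mark on an array (1 each of RPL17, RPL32 and RPS4X) were left out. All 75 genes had a probe well above background on all 4 arrays, as did 152 of the 155 probes, so no member was lost to the filter on dim signals. When a gene had several probes, the one with the brightest mean signal was used. The share of the summed gene probe signal that fell on RP probes was 13.8% on both MDS-L arrays and, in MDS-L/CDA, 13.5% with vehicle and 13.2% with AZA. Spot brightness also depends on the probe, and so this share is a share of signal and not of mRNA. In each comparison 70 of the 75 members lay in the top 10% of the measured genes by signal, called the brightest genes here and used as a second point of reference.

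The first question was whether AZA changed the RP genes of sensitive cells. In MDS-L cells, RP genes were slightly lower with AZA, as were equally bright genes. The median log2 ratio of AZA over vehicle was −0.26 (0.837-fold), against −0.16 for all 15104 measured genes and −0.26 for the brightest genes without RP genes. The ratio was above 1 for 10 of 75 members (13.3%), against 37.7% of all measured genes and 21.2% of the brightest genes without RP genes. No member was at least 1.5-fold higher and 5 (6.67%) were at least 1.5-fold lower, where the same limits took 10.3% and 18.3% of all measured genes. RP genes also lay closer together, with an SD of 0.27 on the log2 scale against 0.66 for all genes and 0.39 for the brightest genes without them. The direction of the median held under every scaling tried, although scaling to the array median moved all genes by a median of −0.70, and with them the RP median to −0.80.

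The second question was the same in AZA-resistant cells. In MDS-L/CDA cells RP genes were almost level, with a median log2 ratio of −0.037 against 0.012 for all 14137 measured genes and −0.0083 for the brightest genes without RP genes. The ratio was above 1 for 35 of 75 members (46.7%), against 51.5% of all measured genes and 48.7% of the brightest genes without RP genes. Here 1 member was at least 1.5-fold higher and 3 (4%) were at least 1.5-fold lower, where these limits took 7.9% and 8.99% of all measured genes. The SD was 0.31, against 0.47 for all genes. The median was 0.00 to 2 decimals under quantile normalization and in the authors' value table, so that it has no settled sign.

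**Figure D1:**
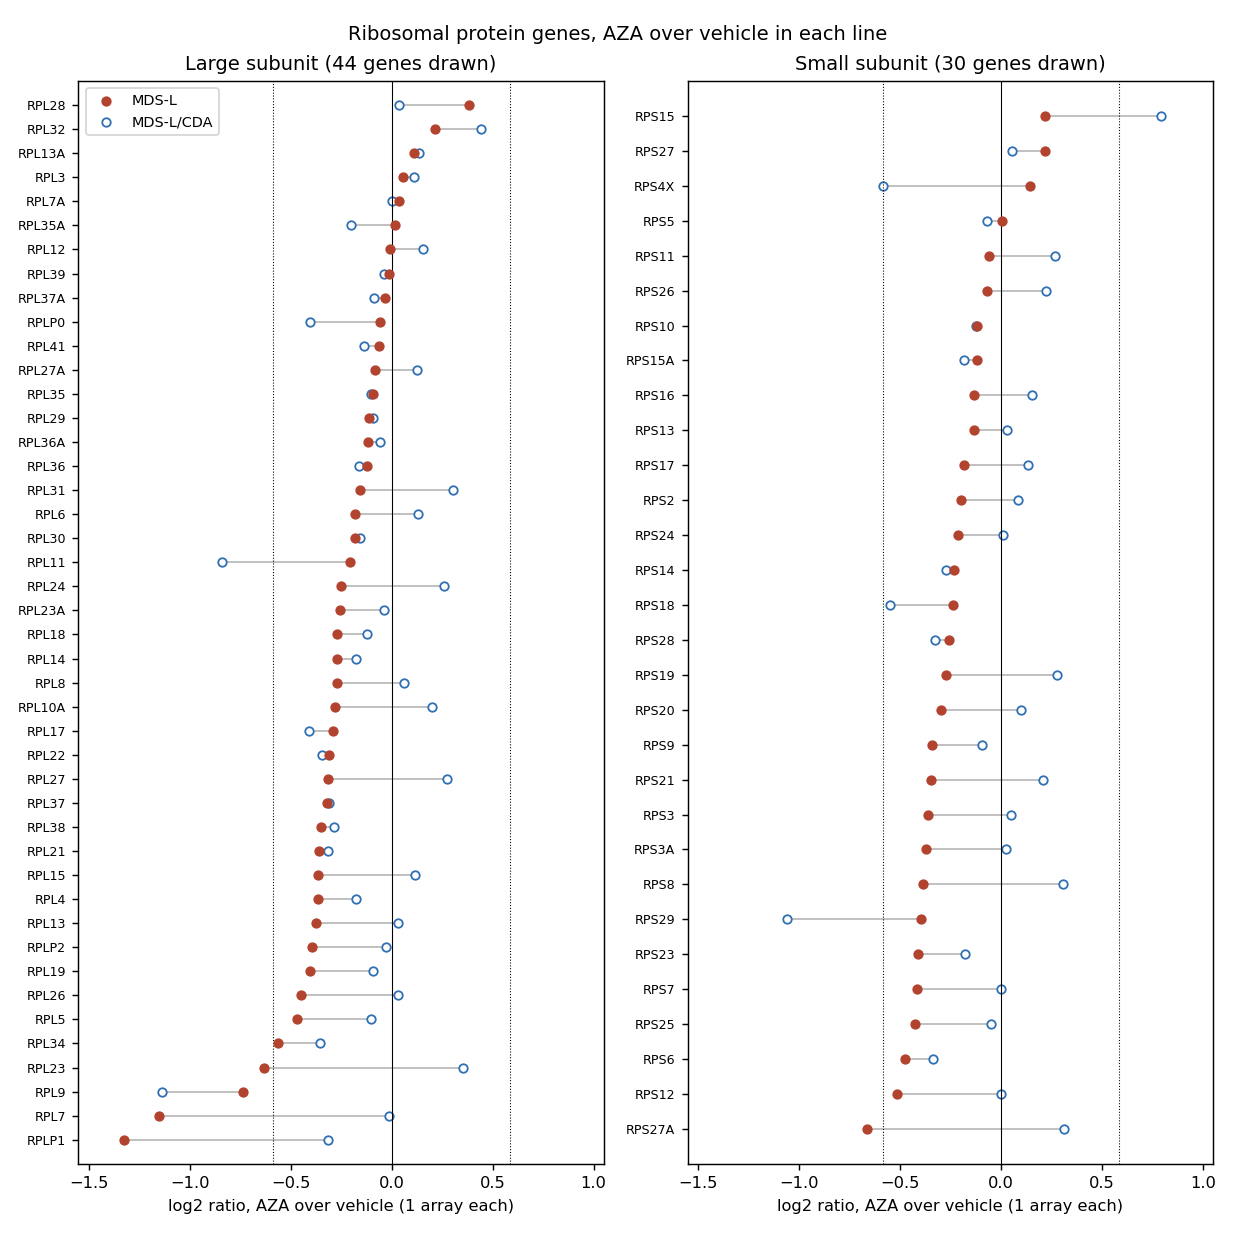
Log2 ratio of AZA over vehicle for the RP genes, 1 of them not drawn (1 array per condition, brightest probe), with MDS-L as filled and MDS-L/CDA as open points, genes sorted by the MDS-L ratio and dotted lines at 1.5-fold. In MDS-L most filled points lie left of 0 and 5 lie beyond the lower limit, while the open points lie on both sides of 0, with 3 beyond the lower limit and RPS15 beyond the upper one.

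**Figure D2:**
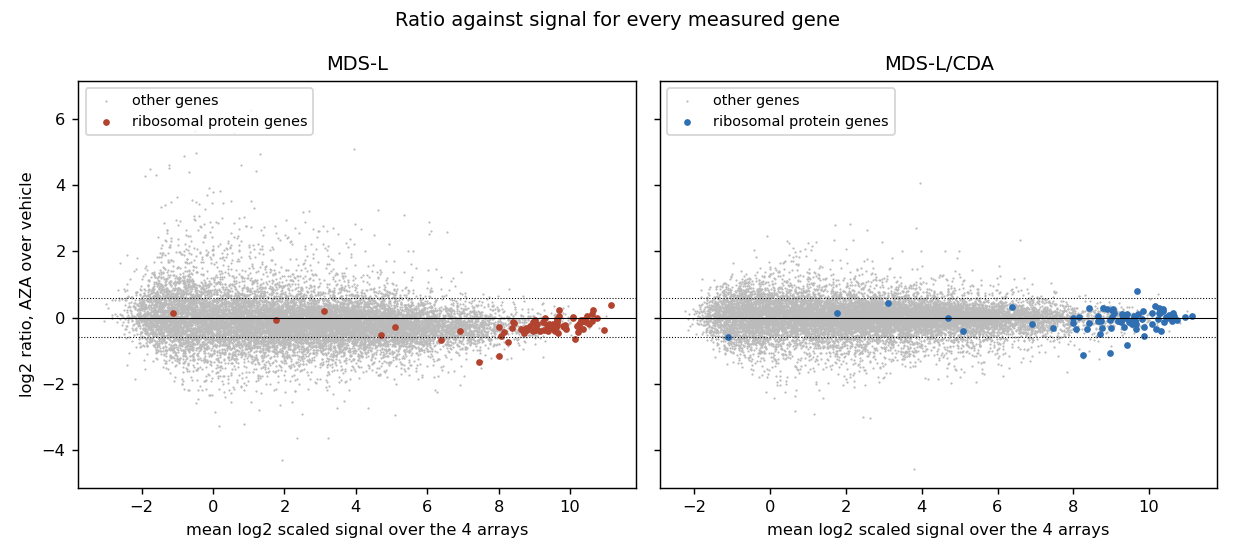
Log2 ratio of AZA over vehicle against the mean log2 scaled signal for every measured gene in MDS-L (left) and MDS-L/CDA (right), RP genes in colour and other genes in grey, dotted lines at 1.5-fold. The RP genes sit at the bright end, within the band of the grey points, and 70 of 75 are among the brightest genes.

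The small subunit binds mRNA and decodes it. Its 30 genes had a median of −0.25 on the log2 scale in MDS-L, with 4 above 1 and 1 at least 1.5-fold lower. Of all measured genes, 37.7% were above 1 and 18.3% at least 1.5-fold lower there. RPS14, the 5q gene, read 648 and 551 in MDS-L without and with AZA, and 784 and 650 in MDS-L/CDA. Values of other genes are given in this order too. It was lower with AZA in both lines, by 0.23 and 0.27 on the log2 scale, close to the RP median in MDS-L and short of 1.5-fold. Its other 2 probes had ratios of −0.16 and −0.25 in MDS-L and of 0.0034 and 0.15 in MDS-L/CDA, so the lower value in MDS-L/CDA rests on the brightest probe. RPS19, the gene mutated most often in Diamond-Blackfan anaemia, was at 1286, 1065, 1168 and 1418, lower with AZA in MDS-L (0.828-fold) and higher in MDS-L/CDA (1.21-fold). Its other probe gave −0.13 and −0.079 on the log2 scale.

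RPS6, whose phosphorylation is a readout of growth signalling, had scaled signals of 896, 645, 970 and 769 on its brightest probe, lower with AZA in both lines (0.720-fold and 0.793-fold). Its other, dim probe gave 0.835-fold in MDS-L and 1.37-fold in MDS-L/CDA. RPS27A encodes a small-subunit protein fused to ubiquitin, and its only probe read 115, 73.0, 68.8 and 85.5. It was the 1 small-subunit gene beyond 1.5-fold in MDS-L (0.632-fold), and it was higher with AZA in MDS-L/CDA (1.24-fold). RPS15, needed for export of the small subunit from the nucleus, read 576, 671, 823 and 1429 on its only probe. It was the 1 member at least 1.5-fold higher in MDS-L/CDA (1.74-fold) and was 1.16-fold higher in MDS-L.

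RPS29 was the 1 small-subunit gene at least 1.5-fold lower in MDS-L/CDA. Its brightest probe read 537, 409, 763 and 367, so that its vehicle value in MDS-L/CDA was the highest of the 4 and AZA stood at 0.481-fold of it. The other 3 probes of RPS29 gave log2 ratios of −0.13, −0.18 and −0.097 there, against −1.06 for the brightest. RPS18 was similar, at 1053, 895, 1096 and 748 on its brightest probe (0.683-fold in MDS-L/CDA), while its other 2 probes gave −0.095 and −0.084 on the log2 scale.

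The large subunit holds the peptidyl transferase centre. Its 45 genes had a median of −0.27 on the log2 scale in MDS-L. Of them, 6 were above 1 and 4 at least 1.5-fold lower, against 37.7% and 18.3% of all measured genes. In MDS-L/CDA the median was −0.088 for the large subunit, with 17 of 45 above 1, and 0.019 for the small subunit, with 18 of 30 above 1. Of all measured genes, 51.5% were above 1 there. RPL9, on its only probe, read 428, 257, 415 and 189. Vehicle values of the lines were alike and both AZA values were lower, to 0.601-fold in MDS-L and 0.455-fold in MDS-L/CDA. RPL9 was the 1 member beyond 1.5-fold in the same direction in both lines.

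RPL7 read 514, 232, 191 and 189 on its brightest probe. Thus the MDS-L vehicle array stood above the other 3, and the ratio was 0.451 in MDS-L and 0.990 in MDS-L/CDA. Its other 2 probes gave −0.69 and −0.34 on the log2 scale in MDS-L, both less than the brightest one. RPL23, which together with RPL5 and RPL11 is known to bind MDM2, read 1316, 848, 1076 and 1374 on its brightest probe, lower with AZA in MDS-L (0.645-fold) and higher in MDS-L/CDA (1.28-fold). On its other probe (155, 86.9, 160 and 94.8) RPL23 was lower with AZA in both lines, by 0.84 and 0.76 on the log2 scale.

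RPL28 had the highest ratio of the large subunit in MDS-L, 1.30-fold, with scaled signals of 1520, 1981, 2885 and 2964 on its brightest probe. The other 3 probes of RPL28 gave −0.45, −0.13 and −0.034 on the log2 scale in MDS-L, so its direction rests on that 1 probe. These probes were far dimmer (0.262, 39.9 and 2.48 in MDS-L vehicle), and the first was not well above background on the MDS-L AZA array. RPL32 came next at 1.16-fold, but only its dim probe (8.20, 9.51, 7.12 and 9.69) was left after the outlier mark on its bright probe in MDS-L/CDA vehicle. On the MDS-L arrays the bright probe carried no mark and gave 659 and 549, a 0.834-fold ratio. RPS4X was in the same position, with 0.474 and 0.525 on the dim probe (1.11-fold) and 933 and 758 on the bright one (0.813-fold) in MDS-L.

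The P stalk, formed by RPLP0, RPLP1 and RPLP2, recruits elongation factors to the ribosome. RPLP1 read 309, 123, 176 and 141, so that the MDS-L vehicle array was highest and MDS-L AZA lowest, and its ratio of 0.399 was the lowest of all members in MDS-L. In MDS-L/CDA it was 0.803. RPLP2 read 861, 656, 777 and 761 (0.762-fold and 0.980-fold), and RPLP0 1408, 1354, 1350 and 1022 (0.962-fold and 0.757-fold). The other probe of RPLP0 gave 0.815-fold and 0.990-fold, so that the lower RPLP0 value in MDS-L/CDA rests on its brightest probe.

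Of the 5S RNP, RPL5 read 464, 336, 468 and 436 on its brightest probe, 0.724-fold with AZA in MDS-L and 0.931-fold in MDS-L/CDA. Its other 3 probes gave −1.22, −0.47 and −0.55 on the log2 scale in MDS-L, all lower, and −0.52, 0.15 and 0.088 in MDS-L/CDA, where they did not share a sign. RPL11 read 674, 584, 991 and 554 on its only probe, 0.867-fold in MDS-L and 0.559-fold in MDS-L/CDA. The MDS-L/CDA vehicle value of RPL11 stood above the other 3, which lay within 554 to 674. The 18 measured RP genes mutated in Diamond-Blackfan anaemia lay at a median of −0.23 on the log2 scale in MDS-L. None was beyond 1.5-fold there, against 10.3% of all measured genes higher and 18.3% lower. In MDS-L/CDA their median was 0.0079, and 2 of 18 (11.1%), RPL11 and RPS29, were beyond the lower limit against 8.99% of all measured genes. The 9 genes around the exit tunnel, through which the new peptide leaves, had medians of −0.29 and −0.089, with none beyond 1.5-fold in either line. Over all measured genes the shares were 10.3% higher and 18.3% lower in MDS-L, and 7.9% and 8.99% in MDS-L/CDA. At these shares few of 9 genes would be counted. The 3 X-linked members measured, RPL36A, RPL39 and RPS4X, had medians of −0.011 and −0.058.

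**Figure D3:**
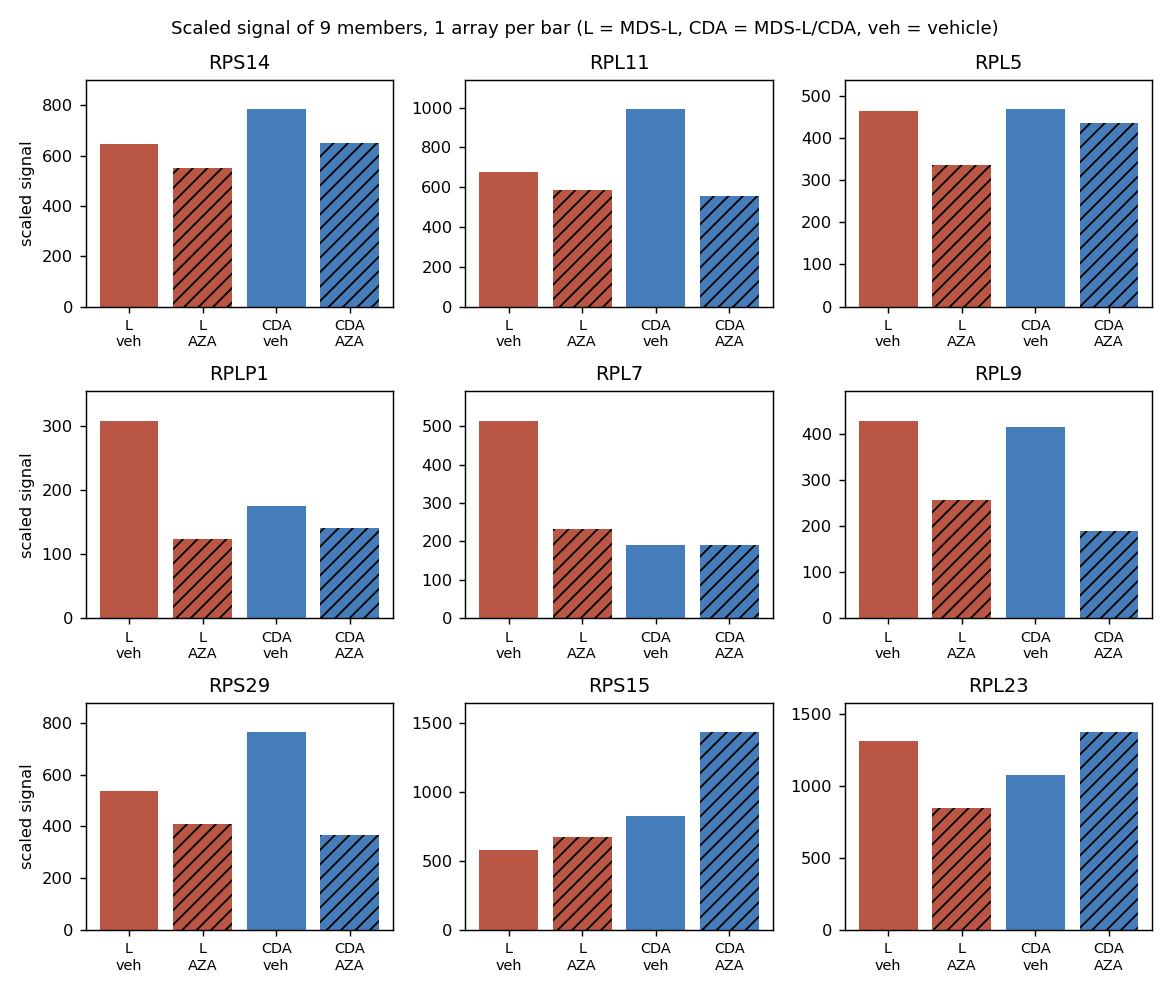
Scaled signal (signal divided by the 75th percentile of its array, axis from 0) of 9 RP genes on each of the 4 arrays, 1 array per bar, hatched bars with AZA, red MDS-L and blue MDS-L/CDA. Both AZA bars of RPL9 are below both vehicle bars, RPL7 and RPLP1 are highest in MDS-L vehicle, and RPL11 and RPS29 are highest in MDS-L/CDA vehicle.

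The AZA ratios of both lines come from different arrays and can be set side by side. The ratio was lower in MDS-L than in MDS-L/CDA for 52 of 75 members, with a median difference of −0.21 on the log2 scale, and 37 members were below 1 in both lines. The median ratio of all measured genes was also lower in MDS-L (−0.16) than in MDS-L/CDA (0.012). So was that of the brightest genes without RP genes (−0.26 and −0.0083). How many of all genes were lower in MDS-L, or below 1 in both lines, was not counted. Over the 75 genes, which are not independent replicates and share the arrays' depth and dye, Pearson's r of the log2 ratios of the lines was 0.24. The largest differences between the lines were those of RPL7 (−1.14), RPLP1 (−1.01), RPL23 (−0.99) and RPS27A (−0.98) on the side of MDS-L, and of RPS4X on its dim probe (0.73), RPS29 (0.66) and RPL11 (0.63) on the side of MDS-L/CDA. None of these differences could be tested.

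MDS-L/CDA was also set directly against MDS-L, which uses the same arrays again. In vehicle the median log2 ratio of the members was −0.017, against 0.093 for all 14510 measured genes, but it lay above 0 with scaling to spike-in probes, so that it has no settled sign. Of the members, 37 (49.3%) were above 1, against 60.7% of all measured genes and 71.7% of the brightest genes without RP genes. Among them 1 member was at least 1.5-fold higher, and 4 members (5.33%) were at least 1.5-fold lower, where these limits took 7.38% and 6.88% of all measured genes. RPL28 was the higher one (1.90-fold) and RPL7 (0.372-fold), RPL17 (0.528-fold), RPLP1 (0.570-fold) and RPS27A (0.596-fold) the lower ones. RPL17 had the opposite sign on its bright probe (226 and 257 in vehicle), which was marked as an outlier only on the MDS-L/CDA AZA array.

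With AZA the median log2 ratio of MDS-L/CDA over MDS-L was 0.17, against 0.23 for all 14542 measured genes and 0.36 for the brightest genes without RP genes, but it was −0.11 with quantile normalization and −0.33 without scaling. In all, 60 members (80%) were above 1, against 67.9% of all measured genes and 83.9% of the brightest genes without RP genes. Of the members, 3 (4%) were at least 1.5-fold higher and 3 at least 1.5-fold lower, where these limits took 21.5% and 9.08% of all measured genes. The higher ones were RPS15 (2.13-fold), RPL23 (1.62-fold) and RPS2 (1.55-fold), and the lower ones included RPL17 (0.487-fold) and RPS4X on its dim probe (0.661-fold). The 3 probes of RPS2 spread from −0.36 to 0.63 on the log2 scale.

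Other genes of the translation machinery were taken as lists. Genes for the mitochondrial ribosome, which translates the mitochondrial genome, lay at a median of −0.44 on the log2 scale in MDS-L over 77 genes, with none at least 1.5-fold higher and 21 (27.3%) at least 1.5-fold lower against 18.3% of all measured genes, from MRPL1 (0.475-fold) and MRPS34 (0.489-fold) to MRPS33 (1.13-fold) and MRPL41 (1.32-fold). In MDS-L/CDA their median was −0.037, with 1 higher and 5 lower (6.49%, against 8.99% of all measured genes), from MRPL3 (0.463-fold) and MRPL48 (0.536-fold) to MRPL17 (1.47-fold) and MRPS30 (1.57-fold). The cytoplasmic RP genes, at −0.26, were thus nearer to 0 than the mitochondrial ones in MDS-L and level with them in MDS-L/CDA.

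Ribosome biogenesis factors, which process ribosomal RNA and assemble the subunits, had a median of −0.39 in MDS-L over 76 genes, with 2 higher and 20 (26.3%, against 18.3% of all measured genes) lower. The lowest were RRS1 (0.428-fold), which brings the 5S RNP into the large subunit, and UTP20 (0.433-fold), and the highest RRN3 (1.81-fold), an initiation factor of RNA polymerase I, and NOC2L (3.08-fold). In MDS-L/CDA the median was −0.040, with 1 higher and 6 lower (7.89%, against 8.99%), from NOLC1 (0.260-fold) and POLR1B (0.501-fold) to SBDS (1.44-fold) and NMD3 (0.59 on the log2 scale). Translation factors had a median of −0.21 over 37 genes in MDS-L, with 1 higher and 9 lower (24.3%, against 18.3%). The lowest were EIF2S1 (0.351-fold) and EIF5B (0.379-fold) and the highest EIF6 (1.12-fold) and EIF2S3 (2.22-fold). In MDS-L/CDA their median was −0.014 over 36 genes, with 1 higher and 1 lower (2.78%, against 8.99%), from EIF3J (0.387-fold) and EIF4B (0.726-fold) to EIF4A2 (1.49-fold) and EEF1A1 (1.65-fold).

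**Figure D4:**
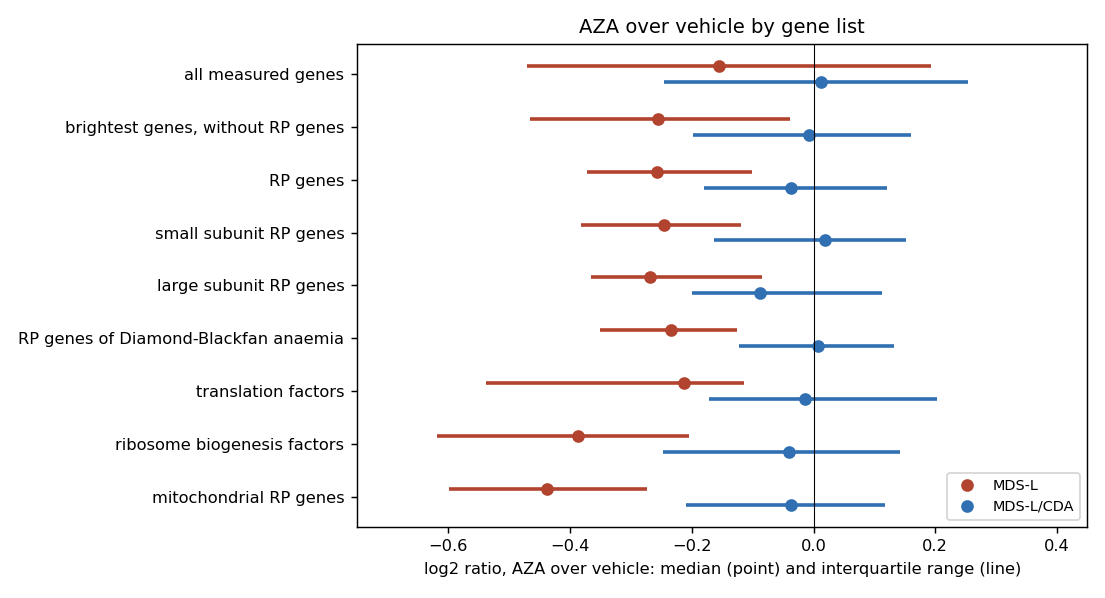
Median (point) and interquartile range (line) of the log2 ratio of AZA over vehicle for the RP genes, their subsets, related lists and 2 reference sets, red MDS-L and blue MDS-L/CDA. In MDS-L the RP median of −0.26 matches that of the other bright genes, with the mitochondrial RP genes (−0.44) and biogenesis factors (−0.39) further from 0, and in MDS-L/CDA the medians drawn lie between −0.088 and 0.019.

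RP genes with other names, and paralogs, made a further list, with 10 genes measured in each line and medians of −0.26 in MDS-L and 0.059 in MDS-L/CDA. FAU, whose product is an RP fused to a ubiquitin-like protein, was 0.788-fold with AZA in MDS-L and 0.982-fold in MDS-L/CDA. GNB2L1, the scaffold RACK1 of the small subunit, was 0.795-fold and 1.01-fold. RPL36AL, the autosomal copy of RPL36A, was the 1 gene of the list beyond 1.5-fold in MDS-L (95.2 and 48.9, 0.514-fold) and was higher with AZA in MDS-L/CDA (62.4 and 82.2, 1.32-fold). RPL22L1 was 1.07-fold and 1.39-fold and RPS27L, a p53 target, 0.919-fold and 1.09-fold. The muscle paralog RPL3L and the testis paralog RPL39L were not well above background on any array.

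Agreement between probes bears on all of these values. Of the 75 genes, 28 had 1 probe and 47 had 2 or more, up to 9 for RPL21. In the 43 genes with at least 2 used probes well above background on all arrays, the log2 ratios of AZA over vehicle of a gene's probes spread over a median range of 0.38 in MDS-L and 0.45 in MDS-L/CDA. The interquartile range between the RP genes was 0.27 and 0.30. Probes of 1 gene had opposite signs in 14 genes in MDS-L and in 30 in MDS-L/CDA. Over all RP probes the median was −0.29 in MDS-L (153 probes, 2 at least 1.5-fold higher and 21 lower) and −0.093 in MDS-L/CDA (152 probes, 3 higher and 13 lower). Over all measured probes the medians were −0.15 (19448 probes) and 0.012 (18080 probes). The share of all probes beyond these limits was not counted. Of all measured genes, 10.3% were higher and 18.3% lower in MDS-L, and 7.9% and 8.99% in MDS-L/CDA. RPL30, whose probe had 9 or 10 spots on each array, gave scaled signals of 757, 667, 813 and 729 with an SD between spots of 0.20 to 0.26 on the log2 scale, and its AZA ratios were −0.18 and −0.16.

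**Figure D5:**
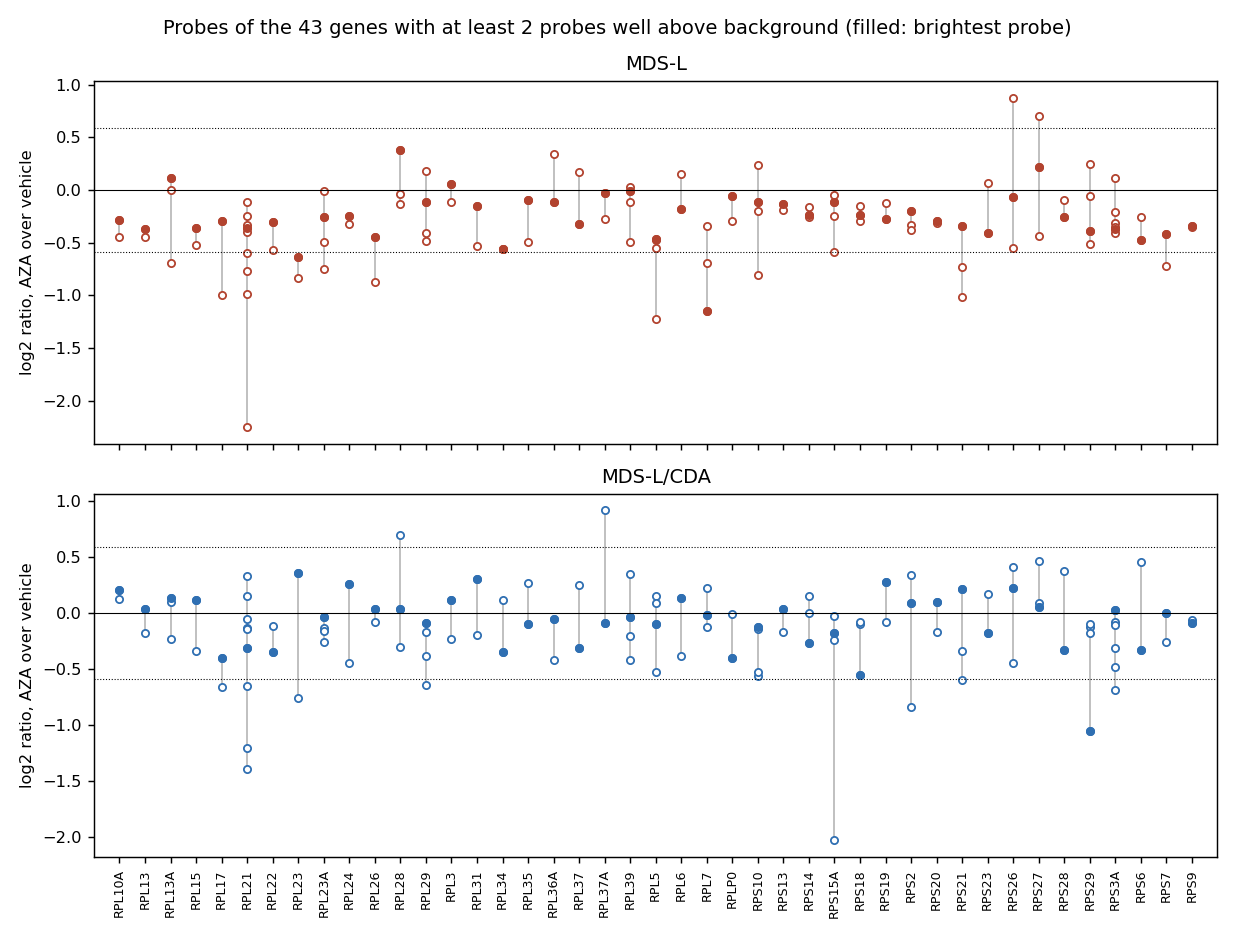
Log2 ratio of AZA over vehicle for each probe well above background on all arrays, in the 43 RP genes with at least 2 such probes, MDS-L above and MDS-L/CDA below, the brightest probe filled and dotted lines at 1.5-fold. Probes of 1 gene spread over a median range of 0.38 in MDS-L and 0.45 in MDS-L/CDA, and the widest ranges are those of RPL21 (2.13) and RPS15A (2.00).

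Some probes of a gene overlap and read almost the same bases. With an overlap of at least 20 bases and at most 15% of it differing, limits set after the values had been seen, there were 16 such pairs in 11 genes. In 13 pairs at least 1 base differed within the overlap, and in 3 none did. The log2 ratios of a pair differed by a median of 0.41 in MDS-L and 0.38 in MDS-L/CDA, and by at least 1.5-fold in 4 and 5 pairs. The sequences of a differing pair cannot both match 1 transcript in full. Shown are 4 pairs, chosen for how far their ratios lay apart in 1 line, with the differing bases in capitals. The RPS15A probes share 41 bases with 1 difference. In MDS-L/CDA the first had a log2 ratio of −0.18 (921 and 812) and the second −2.03 (299 and 73.5). In MDS-L they had −0.12 and −0.24. The RPS29 probes share 51 bases with 5 differences, and had −1.06 and −0.097 in MDS-L/CDA but −0.39 and −0.51 in MDS-L. The RPS10 probes share 44 bases with 5 differences and had −0.12 and −0.80 in MDS-L, and −0.12 and −0.53 in MDS-L/CDA. The RPL21 probes share 36 bases with 1 difference and had −0.99 and −2.25 in MDS-L but −1.20 and −1.39 in MDS-L/CDA. Whether the differing bases account for the gaps was not tested.
RPS15A first: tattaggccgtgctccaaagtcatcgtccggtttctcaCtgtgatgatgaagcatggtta
RPS15A second: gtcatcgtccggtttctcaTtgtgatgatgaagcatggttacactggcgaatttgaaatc
RPS29 first: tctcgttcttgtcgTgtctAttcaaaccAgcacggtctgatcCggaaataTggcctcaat
RPS29 second: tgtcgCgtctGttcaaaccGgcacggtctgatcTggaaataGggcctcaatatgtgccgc
RPS10 first: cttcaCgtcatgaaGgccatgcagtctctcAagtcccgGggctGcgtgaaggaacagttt
RPS10 second: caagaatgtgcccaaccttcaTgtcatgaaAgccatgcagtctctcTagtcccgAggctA
RPL21 first: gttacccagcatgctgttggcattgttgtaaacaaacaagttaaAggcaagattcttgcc
RPL21 second: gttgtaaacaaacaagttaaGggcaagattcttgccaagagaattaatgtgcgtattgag

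In hg19 the RPS15A probes span chr16:18799461-18800358 and chr16:18799442-18800339, the RPS29 probes chr14:50052719-50053013 and chr14:50052710-50053004, the RPS10 probes chr6:34392582-34392872 and chr6:34392598-34392888, all on the minus strand, and the RPL21 probes chr13:27829448-27830336 and chr13:27829472-27830360 on the plus strand. Each was placed over more genome than its 60 bases, so each placement crosses a splice junction of the gene. Which transcript or copy a probe reads was not tested. RP genes have many near-identical copies, and 2 probes of the set were placed on another chromosome than their gene (1 each of RPL13A and RPL21, both on chromosome 10), neither of them used as the brightest probe. How far such copies add to a signal was not tested, and values of single RP probes are uncertain to that extent.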

How the data were processed

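RNA of both lines, with vehicle or AZA, was hybridized to 4 Agilent arrays with a single dye (Cy3) on 1 slide, 1 array per condition. The deposited scanner files hold the spot intensity after background subtraction by Feature Extraction 10.7.1.1, not normalized between arrays, with marks for outlier spots, saturation and signals well above background. The authors' value table holds an intensity for 51680 probes, normalized between arrays in a way not given in the sources used here. Gene names and hg19 positions are those of the files.

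Control spots and spots with an outlier mark were dropped, and so were probes with no spot left on at least 1 array. The remaining spots of a probe were averaged as log2 signals. The 75th percentile of gene probes was subtracted for each array, leaving 58185 probes. A gene was read from its probe with the highest mean signal, and was measured in a comparison if well above background on both arrays. Genes at least 1.5-fold higher or lower were counted, beside the same count over all measured genes. No test was possible with 1 array per condition. Samples were grouped by their source names.

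The members, lists and limits were chosen with earlier results of these data known. Named are RPS14, the 5 highest and 5 lowest members in each line, the 5 largest differences between the lines in each direction, members beyond 1.5-fold in any comparison, the short lists of RP genes, and the 2 highest and 2 lowest genes of other lists. Other members, such as RPS6, RPS10, RPS15A, RPL21 and RPL30, are given for their role or for their probes, after their values were seen. Single values of 2 genes are not reported here, although the counts and medians include them.

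Alternatives were scaling to the array median, no scaling, quantile normalization, normexp background correction with an offset of 50, the authors' value table, scaling to 7 spike-in probes, the mean of a gene's probes or its dimmest probe, and folds of 2 and 1.25. The median of a gene's probes and outlier marks applied only to the arrays compared were added after seeing the data. The counting was tested on simulated data. Python 3.11.15, numpy 2.4.6, pandas 2.3.3, matplotlib 3.10.9, R 4.3.3 and limma 3.58.1 were used. Promoter windows are those of RefSeq on GRCh38.p14, where all 75 symbols were found and 60 had a window.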

Additional observations from a re-analysis of the deposited data

Results flagged for a closer look

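RPL23 and RPS27A were lower with AZA in MDS-L and higher with AZA in MDS-L/CDA. The log2 ratio of RPL23 was −0.63 in MDS-L and 0.35 in MDS-L/CDA, a difference of −0.99, and that of RPS27A was −0.66 and 0.31, a difference of −0.98. With 1 array per condition the difference was not tested. The other probe of RPL23 was lower in both lines (−0.84 and −0.76), and RPS27A had 1 probe.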

How the results depend on the processing

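No paired analysis was possible because each condition had 1 array. For the same reason no replicate could be left out. Scaling each array to its median gave an RP median of −0.80 and 62 lower members for AZA in MDS-L (where 58.9% of all measured genes were lower, with an all-gene median of −0.70), 5 lower for AZA in MDS-L/CDA (10.6% of all genes), and a median of −0.54 with 0 higher and 31 lower for MDS-L/CDA over MDS-L in vehicle (33.1% of all genes lower). Without scaling, 6 members were lower for AZA in MDS-L/CDA (13.2% of all genes), and MDS-L/CDA over MDS-L had a median of −0.38 with 0 higher and 16 lower (20.6% of all genes) in vehicle and a median of −0.33 with 0 higher and 11 lower (27.4%) with AZA. Quantile normalization and the authors' value table each gave 2 lower members for AZA in MDS-L (14.6% and 14.5% of all genes). Both gave 0 higher for the lines in vehicle (6.20% and 6.06%). For the lines with AZA both gave 1 higher (14.8% and 14.6%) and 5 lower (12.1% and 12.2%), with medians of −0.11 and −0.094. Normexp gave 0 higher and 6 lower for AZA in MDS-L/CDA (5.79% of all genes lower), 0 higher and 11 lower for the lines in vehicle (5.84%), and a median of −0.076 with 0 higher and 6 lower for the lines with AZA (8.12%). Spike-in scaling gave 3 lower for AZA in MDS-L (12.7% of all genes) and 2 higher for the lines in vehicle (8.61%).

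The mean of a gene's probes gave 10 lower for AZA in MDS-L (18.06% of all genes). It gave 0 higher for the lines in vehicle (6.98%) and 1 higher with AZA (20.8%). The median of the probes gave 8 lower (17.99%), 0 higher (6.99%) and 1 higher (20.9%) in these comparisons. The dimmest probe gave 1 higher and 11 lower for AZA in MDS-L (11% and 19.02% of all genes). For AZA in MDS-L/CDA it gave 3 higher and 7 lower (8.7% and 9.56%), and for the lines in vehicle 0 higher (8.46%). It also turned the sign of MDS-L/CDA over MDS-L for RPL28 in vehicle (−0.52) and, with AZA, for RPL17 (0.17) and RPS2 (−0.36), and outlier marks applied within each comparison turned it for RPL17 in vehicle (0.19). A fold of 2 left 2 lower for AZA in MDS-L (5.90% of all genes) and 0 higher for AZA in MDS-L/CDA (2.00%). For the lines it left 0 higher and 1 lower in vehicle (1.59% and 2.17%), and 1 higher and 1 lower with AZA (5.32% and 3.91%). The smaller fold tried gave 1 higher and 27 lower for AZA in MDS-L (18.8% and 35.8% of all genes). For AZA in MDS-L/CDA it gave 3 higher and 12 lower (19.5% and 20.0%). For the lines it gave 10 higher and 12 lower in vehicle (23.3% and 15.3%), and 20 higher and 5 lower with AZA (42.2% and 16.1%). Relative to the median of all genes, the RP median was lower under every setting. Median scaling, spike-in scaling and no scaling shift all genes of an array alike, so they could not change this difference. For AZA in MDS-L, the RP median and that of the brightest genes without RP genes were both −0.26 in the main setting. Of the medians and counts recomputed, 79 stayed close to their values in the report and 57 moved. The cause of these shifts was not tested.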
